A study of Arabidopsis thaliana with 17 samples.

Results

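OE-6 is an Arabidopsis thaliana line in which the mutant atdgcr14l-1 carries a 35S:AtDGCR14L transgene. AtDGCR14L encodes a DGCR14-like protein, a relative of a splicing-associated protein of animals, and the 35S promoter drives transcription in most plant tissues. The salt response of this complemented line was described from 6 libraries, chosen by their titles: 3 from OE-6 after 24 h of 200 mM NaCl and 3 from OE-6 at 0 h. They are 6 of the 17 libraries analysed, the others being atdgcr14l-1 (3 at 24 h and 3 at 0 h) and Col-0, the wild-type accession (3 at 24 h and 2 at 0 h). The plants were grown hydroponically and were 14 days old, and the tissue is labelled seedling. Both OE-6 groups carry the mutation and the transgene, and all come from 1 line. Of 27655 genes listed in each library, 21282 had enough counts in some group of the series to be tested.

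Excess NaCl withdraws water from cells and loads them with sodium. Plants respond through abscisic acid (ABA), whose receptors, when bound, inhibit clade A protein phosphatases (PP2Cs) and so release SnRK2 kinases. These kinases activate bZIP factors that bind ABA-responsive promoter elements (ABREs) of genes for dehydrins and other protective proteins. Sodium is exported or stored in the vacuole, compatible solutes are made, and growth and photosynthesis are commonly held back. Jasmonate, ethylene and senescence pathways are also known to respond to salt.

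The design has limits that apply to every value below. No OE-6 library kept for 24 h without salt was analysed here, so salt and the passage of 24 h cannot be told apart. Nothing in the labels assigns the libraries of a group to separate plants or cultures, and p-values therefore measure the spread between these samples, which may be technical. Levels are shares of a library's counts, and fewer cells of a type and less RNA per cell cannot be told apart. Totals were close, at 54515091, 54843608 and 54190539 counts in the 24 h libraries, against 56464259, 55650069 and 53058673 counts in the 0 h libraries. Levels are given per library, in the order of the replicate numbers in the labels, as CPM (counts scaled to a common library size with TMM factors). Differences are log2 values of 24 h minus 0 h with their standard errors from edgeR's quasi-likelihood test, and the call threshold was an adjusted p of 0.05 (Benjamini-Hochberg, all tested genes).

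The seedling label was set against markers. Of 10 tested leaf markers 1 was higher and 8 lower at 24 h, and of 11 flower markers none was called (summed level 105, 12.2 and 27.0 CPM at 24 h, against 67.0, 39.4 and 32.1 CPM at 0 h). Of 15 root markers EXPA7, RHD6, RSL4 and EXT12 were at 0 counts in all 6 OE-6 libraries, COBL9 had 8 counts over all of them and 7 passed the filter, of which 3 fell and none rose. The summed root markers reached 53.6, 40.2 and 186 CPM at 24 h, against 194, 163 and 226 CPM at 0 h. The highest 24 h sum, in library 3, was mostly PYK10, a beta-glucosidase known from roots, at 11.2, 10.5 and 146 CPM at 24 h, against 145, 113 and 172 CPM at 0 h.

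Library 2 of the 24 h group and replicate 1 at both times stood apart from the other OE-6 libraries. The coordinate of 24 h library 2 on the second principal component, which holds 6.97% of the variance, was 92.8, against -6.1 and 7.4 for libraries 1 and 3. On the third component, which holds 5.29%, replicate 1 lay at -66.3 at 24 h and -53.5 at 0 h, and the other OE-6 libraries between -11.5 and 29.9. Many genes of the shoot apex were low in 24 h library 2. Of a list of 14 such genes, drawn up after the pattern was seen, STM, CUC1, CUC2, CYP78A5 and GRF5 had 0 counts there. CLV3 and WUS were also at 0 there, but had only 3 and 58 counts over all OE-6 libraries. CLV3 was at 0 in every 24 h library. STM, a meristem homeobox gene, had 9.74, 0 and 9.54 CPM at 24 h, against 11.7, 10.1 and 8.78 CPM at 0 h. AN3, a coactivator of leaf primordium growth, had 14.9, 0.130 and 10.9 CPM at 24 h, against 22.8, 19.9 and 16.7 CPM at 0 h. CLV1, a meristem receptor kinase and the most counted gene of the list, was not low in that library, at 46.7, 58.6 and 51.9 CPM at 24 h, against 84.0, 108 and 91.8 CPM at 0 h. Counts of genes for some groups are therefore also given without 24 h library 2, or without replicate 1 at both times, mainly where they changed most. Not every change is given, so a count given once may still depend on a library. Without 24 h library 2, for example, spliceosome genes called lower went from 16 to 13, and ABA synthesis genes called higher from 4 to 5.

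**Figure D1:**
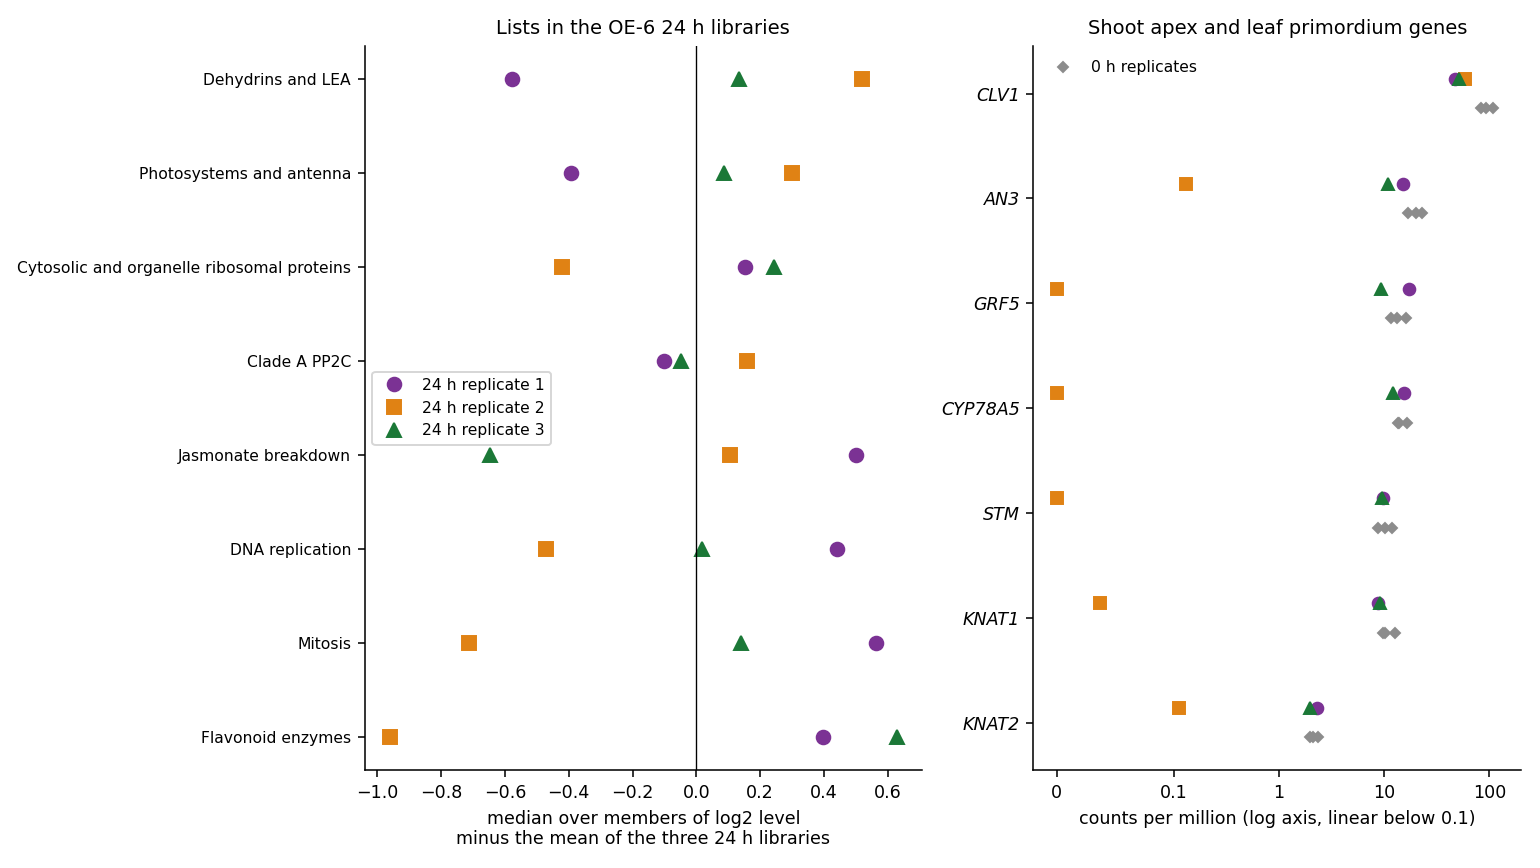
Left, the median over the members of each list of their log2 level minus the mean of the OE-6 24 h libraries, with 1 symbol per 24 h replicate. Right, CPM of shoot apex and leaf primordium genes in the 24 h and 0 h OE-6 libraries on a log axis that is linear below 0.1; replicate 2 of 24 h lies far below the others for 6 of the 7 genes, CLV1 being the exception.

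The targeted gene was checked first. AtDGCR14L (AT3G07790, chromosome 3, 2487313 to 2489386, 1 exon) had 67.6, 88.3 and 68.4 CPM at 24 h, against 43.2, 48.6 and 50.5 CPM at 0 h. All 24 h libraries lay above all 0 h libraries (log2 difference 0.66 ± 0.11, adjusted p = 0.000184). The atdgcr14l-1 libraries held 11.3, 13.1 and 12.1 CPM at 24 h, against 8.27, 8.52 and 6.76 CPM at 0 h, and the Col-0 libraries 74.2, 78.8 and 72.2 CPM at 24 h, against 59.9 and 55.7 CPM at 0 h. The gene was thus well above the mutant in each OE-6 library, and at 0 h OE-6 lay below Col-0. Counts from the transgene and from the mutated native locus cannot be told apart in these files.

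The level of 11759 of the 21282 tested genes (55.3%) differed between 24 h and 0 h in OE-6. At 24 h 6288 genes were higher (29.5% of those tested) and 5471 lower (25.7%), with a median log2 difference over all tested genes of 0.03. These shares and this median are the background against which each list below is read. Large changes were mainly rises: 2637 genes were called at least 2-fold higher and 1836 at least 2-fold lower, 790 and 137 at least 8-fold, and 378 and 33 at least 32-fold. Of the genes called, 8681 (73.8%) kept their call whichever OE-6 library was left out, and 10472 (89.1%) kept it without 24 h library 2, when 6003 genes were called higher (28.2%) and 5217 lower (24.5%). The 24 h libraries varied more among themselves than the 0 h libraries, with a median SD of 0.220 on the log2 scale, against 0.121.

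Among the genes called higher, 155 had 0 counts in every OE-6 library at 0 h, and 16 called lower had 0 counts in every one at 24 h. Of the 155, 106 had at most 3 counts in each of the 5 Col-0 and atdgcr14l-1 libraries at 0 h. The rest had more in some of those libraries. A fold for a gene at 0 in all OE-6 libraries of a time is given as a lower bound, computed against 3 counts in each of the libraries at 0. The genes with the largest rises came from several pathways. RAP2.6, an ethylene response factor known from stress and wound responses, had 65.5, 13.9 and 9.88 CPM at 24 h, against 0, 0 and 0 CPM at 0 h. It was at least 521-fold higher and highest in library 1. AOX1D, an alternative oxidase of mitochondria, had 51.1, 26.9 and 7.19 CPM at 24 h, against 0, 0 and 0 CPM at 0 h, at least 497-fold higher. SUC7, annotated as a sucrose-proton symporter and similar enough to its SUC relatives for reads to be shared, had 67.7, 10.8 and 4.34 CPM at 24 h, against 0, 0 and 0 CPM at 0 h, at least 484-fold higher. Each of these was highest in library 1 and lowest in library 3, and none was detected at 0 h. BSMT1, which methylates salicylate and benzoate to volatile esters, was at least 443-fold higher. LEA7, a late embryogenesis abundant (LEA) protein gene, was at least 232-fold higher, and AT5G50360, annotated with a von Willebrand factor A domain, at least 202-fold.

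LTP4, a lipid transfer protein gene, gained among the most in both fold and share of counts. It had 596, 1208 and 1218 CPM at 24 h, against 0.265, 0 and 0 CPM at 0 h. Library 1 was the lowest of the 24 h group and still far above the 14 counts found over all 0 h libraries (log2 difference 13.43 ± 0.70, adjusted p = 1.04e-08). Its tandem neighbour LTP3, with which it may share reads, had 344, 739.8 and 629.6 CPM at 24 h, against 0.322, 0.111 and 0 CPM at 0 h (log2 difference 11.91 ± 0.58, adjusted p = 7.60e-09). ELI3-2, a cinnamyl alcohol dehydrogenase gene, had 189, 88.0 and 71.7 CPM at 24 h, against 0.152, 0.0923 and 0 CPM at 0 h (log2 difference 10.42 ± 0.79, adjusted p = 2.92e-07). ILL5, annotated as an auxin conjugate hydrolase, had 25.0, 4.83 and 2.53 CPM at 24 h, against 0.0189, 0 and 0 CPM at 0 h and completed the 10 genes named for the largest rise, with a ratio of 1759.6 (counting interval 315 to 69538).

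The largest falls included the wall genes EXPA8 and XTH17, beside genes of other or unassigned function. EXPA8, an expansin that loosens cell walls, had 1.26, 1.33 and 1.42 CPM at 24 h, against 139, 101 and 98.9 CPM at 0 h. The groups lay far apart (log2 difference -6.40 ± 0.40, adjusted p = 4.84e-08). CYP78A8, a cytochrome P450, had 0.249, 0.296 and 0.176 CPM at 24 h, against 18.8, 21.7 and 20.6 CPM at 0 h (log2 difference -6.39 ± 0.30, adjusted p = 3.69e-09). MEE3, a small MYB-like gene, had 0.199, 0.315 and 0.211 CPM at 24 h, against 9.59, 11.9 and 19.3 CPM at 0 h (log2 difference -5.81 ± 0.41, adjusted p = 7.87e-08). The other falls named by size were GASA6, a gibberellin-regulated peptide (-5.18 ± 0.21), AT3G21460, a glutaredoxin (-5.27 ± 0.52), XTH17, a wall-modifying enzyme (-4.22 ± 0.42), AT4G02850 (-5.10 ± 0.24), AT1G13650 (-4.54 ± 0.29), AT3G46490 (-4.39 ± 0.30) and AT3G55646 (-4.27 ± 0.22). Genes were named for the largest rises and falls only if their groups did not overlap, which held for 60.4% of all tested genes.

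Ranked by share of counts, the gains went to stress proteins and the losses to photosynthesis. LOX2, the plastid lipoxygenase that begins jasmonate synthesis, had 4265, 4930.3 and 2974 CPM at 24 h, against 639.7, 508 and 548 CPM at 0 h. Every 24 h library exceeded every 0 h library (log2 difference 2.84 ± 0.20, adjusted p = 7.24e-08). RD29A, a desiccation-responsive gene listed as LTI78, had 1539.7, 3329 and 2172 CPM at 24 h, against 125, 164 and 138 CPM at 0 h (log2 difference 4.04 ± 0.37, adjusted p = 7.81e-07). VSP2, a vegetative storage protein used as a jasmonate marker, had 1755, 962 and 1223 CPM at 24 h, against 86.1, 35.2 and 57.1 CPM at 0 h (log2 difference 4.46 ± 0.45, adjusted p = 2.29e-06). CORI3, a tyrosine transaminase also known to respond to coronatine and jasmonate, rose by 4.76 ± 0.24 on the log2 scale, NIT1, a nitrilase, by 1.61 ± 0.15, and PRXR1, a peroxidase, by 0.57 ± 0.17, a call lost without 24 h library 2 (adjusted p = 0.0552). The losses were led by LHB1B2, RBCS3B, CAB3 and RBCS1A, antenna proteins and small subunits of Rubisco whose copies are close enough to share reads. RBCS1A fell to 6096, 7125 and 8881 CPM at 24 h, against 12668, 10901 and 10661 CPM at 0 h (log2 difference -0.63 ± 0.17, adjusted p = 0.00601), and lost its call when replicate 1 was left out at both times (adjusted p = 0.0773).

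**Figure D2:**
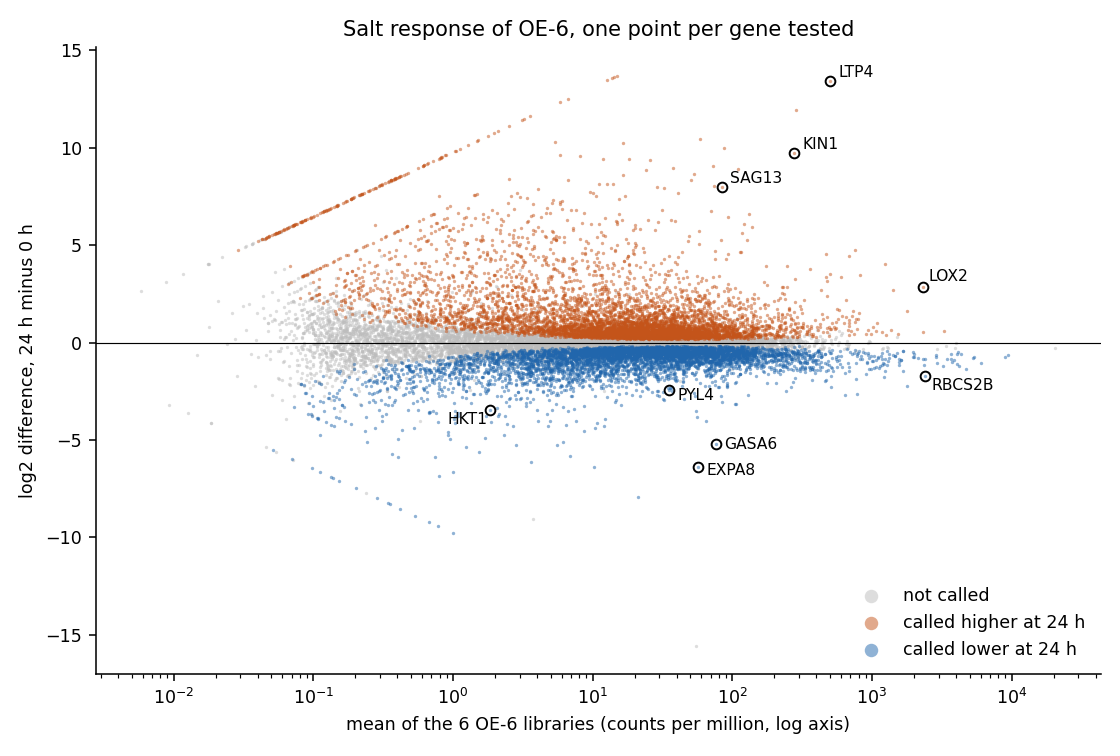
Log2 difference of OE-6, 24 h minus 0 h (vertical), against mean level (horizontal) for every tested gene, with called genes coloured by direction and some named. The diagonal streaks are genes at 0 counts in all libraries of one time, whose fitted values depend on the prior count; 6288 genes lie in the called higher group and 5471 in the called lower group.

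Genes rose on both the making and the breaking side of ABA metabolism. Of 9 tested synthesis and release genes 4 rose, with a list median of 1.07. NCED3, whose product cleaves carotenoid precursors in the step that limits ABA synthesis under stress, had 28.7, 44.6 and 29.1 CPM at 24 h, against 7.60, 8.09 and 5.62 CPM at 0 h. The 24 h libraries all exceeded the 0 h libraries, library 2 most (log2 difference 2.26 ± 0.21, adjusted p = 7.27e-07). AAO3, the aldehyde oxidase of the last step, rose by 1.74 ± 0.21, ABA3, which makes its molybdenum cofactor, by 1.07 ± 0.12, and BG1, which frees ABA from its glucose ester, by 1.60 ± 0.20. ABA2, a dehydrogenase of the pathway, was the only one called lower, with overlapping groups (log2 difference -0.30 ± 0.11, adjusted p = 0.0358), and lost its call without 24 h library 1 (adjusted p = 0.108), 24 h library 2 (adjusted p = 0.139), 0 h library 1 (adjusted p = 0.0963), 0 h library 3 (adjusted p = 0.0716) or replicate 1 at both times (adjusted p = 0.209). On the breakdown side 3 of 5 rose: the hydroxylase genes CYP707A3 and CYP707A1 by 2.87 ± 0.32 and 2.86 ± 0.39, and UGT71B6, which glucosylates ABA, by 2.18 ± 0.33.

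Receptor genes were more often lower than higher, and phosphatase genes were all higher. Of 14 receptor genes 9 were tested, 2 rose and 5 fell, with a median of -0.36. PYL4 had 12.5, 8.53 and 11.9 CPM at 24 h, against 52.0, 61.4 and 66.3 CPM at 0 h. Its highest 24 h library was below its lowest 0 h library by a wide margin (log2 difference -2.45 ± 0.16, adjusted p = 3.48e-08). PYL6, counted at low levels, had 0.431, 0.185 and 0.141 CPM at 24 h, against 3.32, 4.98 and 5.45 CPM at 0 h (log2 difference -4.16 ± 0.37, adjusted p = 5.28e-07). PYL5 and PYL8 fell by 1.33 and 0.77, while PYL7 and PYL9 rose by 0.76 ± 0.10 and 0.44 ± 0.12. All 9 PP2C genes rose, in every set of libraries that left 1 out, with a median of 2.32. HAI2 had 38.5, 70.2 and 64.1 CPM at 24 h, against 1.27, 0.738 and 0.395 CPM at 0 h. Library 1 was the lowest at 24 h, far above each 0 h library (log2 difference 6.16 ± 0.38, adjusted p = 4.10e-08). HAI1 rose by 5.47 ± 0.37, ABI2 by 2.21 ± 0.18, ABI1 by 1.697 ± 0.15, and HAB2 least, by 0.76 ± 0.09. AHG1 had 135 counts over the 24 h libraries, against 2 over the 0 h libraries, a ratio of 62.2 with a counting interval of 16.9 to 518.

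Among 10 SnRK2 kinase genes 2 rose and 2 fell, and 4 fell without 24 h library 2. OST1, the kinase known for stomatal closure, had 34.6, 35.5 and 31.3 CPM at 24 h, against 13.96, 16.7 and 14.6 CPM at 0 h, higher in every 24 h library (log2 difference 1.16 ± 0.11, adjusted p = 7.30e-07). SNRK2.3, a close relative, fell to 34.8, 33.6 and 39.0 CPM at 24 h, against 55.3, 53.7 and 57.5 CPM at 0 h (log2 difference -0.63 ± 0.08, adjusted p = 2.12e-05). Of 14 tested genes for ABA-related transcription factors 12 rose and none fell, with 10 to 12 rising when 1 library was left out. The bZIP gene ABF3 rose by 1.58 ± 0.17 and ABF2 by 0.92 ± 0.13. The NAC factor gene NAC019 had 116, 64.2 and 50.02 CPM at 24 h, against 1.16, 0.831 and 1.07 CPM at 0 h, library 1 being the highest (log2 difference 6.23 ± 0.42, adjusted p = 9.25e-08). RD26, another NAC factor, rose by 4.16 ± 0.29, MYB2 by 6.50 ± 0.50, and HB-7, a homeodomain factor, by 3.48 ± 0.31. MYC2 was listed at 0 counts in 14 of the 17 libraries and could not be described.

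All 21 genes of dehydrins, LEA and related desiccation proteins rose, with a median log2 difference of 3.45, and 20 or 21 rose whichever library was left out. Their summed level was 9659, 18801 and 14494 CPM at 24 h, against 2371, 2110.3 and 2304 CPM at 0 h. Library 1 was the lowest and library 2 the highest of the 24 h group, and even library 1 was far above the 0 h sums. KIN1, a small protective protein gene next to its near copy KIN2, had 386, 574 and 686 CPM at 24 h, against 0.625, 0.886 and 0.414 CPM at 0 h (log2 difference 9.73 ± 0.43, adjusted p = 3.69e-09). RD29B, named for desiccation, had 9.62, 49.9 and 24.1 CPM at 24 h, against 0.133, 0.0369 and 0.118 CPM at 0 h (log2 difference 8.16 ± 0.90, adjusted p = 7.71e-06). LEA4-5, a LEA protein gene, had 12.5, 43.7 and 44.7 CPM at 24 h, against 0.0947, 0.258 and 0.197 CPM at 0 h (log2 difference 7.50 ± 0.69, adjusted p = 1.42e-06). In each of these genes the groups lay far apart. RAB18, a dehydrin, rose by 5.25 ± 0.44, XERO2 by 6.57 ± 0.35 and RD20, a lipid droplet protein, by 5.90 ± 0.35, and COR15B least, by 1.08 ± 0.36. COR15B, a chloroplast cold-response protein gene, had 128, 326 and 247 CPM at 24 h, against 138, 98.7 and 94.3 CPM at 0 h. Its library 1 overlapped the 0 h group, and the call was lost without 24 h library 2 (adjusted p = 0.114), 0 h library 2 (adjusted p = 0.0682) or 0 h library 3 (adjusted p = 0.0726).

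Promoter windows of 250 bases before the annotated start were read for ABRE letters, ACGTGGC or ACGTGTC on either strand, because this element is the known link between ABA-activated bZIP factors and these genes. The windows below are from RefSeq TAIR10.1, written 5′ to 3′ on the strand of the gene in lower case, with ABRE matches in capitals (a match on the other strand reads GCCACGT or GACACGT). They show a window with several matches, a pair of windows with fewer, a PP2C window, and the RD29A window with none. The windows are RD29B at chr5:21236771-21237020 (+ strand), LEA4-5 at chr5:2090431-2090680 (- strand), LEA14 at chr1:172949-173198 (- strand), HAB1 at chr1:27389698-27389947 (+ strand) and RD29A at chr5:21240467-21240716 (+ strand).
RD29B: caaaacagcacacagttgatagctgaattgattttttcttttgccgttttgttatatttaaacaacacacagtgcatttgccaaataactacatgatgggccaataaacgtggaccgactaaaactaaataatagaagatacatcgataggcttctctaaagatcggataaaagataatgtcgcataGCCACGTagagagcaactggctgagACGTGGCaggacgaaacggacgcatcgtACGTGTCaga
LEA4-5: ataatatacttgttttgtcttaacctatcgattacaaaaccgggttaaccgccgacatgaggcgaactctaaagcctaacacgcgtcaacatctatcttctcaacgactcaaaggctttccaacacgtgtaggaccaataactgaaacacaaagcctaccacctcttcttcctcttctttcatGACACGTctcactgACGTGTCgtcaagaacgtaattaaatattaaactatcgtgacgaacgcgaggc
LEA14: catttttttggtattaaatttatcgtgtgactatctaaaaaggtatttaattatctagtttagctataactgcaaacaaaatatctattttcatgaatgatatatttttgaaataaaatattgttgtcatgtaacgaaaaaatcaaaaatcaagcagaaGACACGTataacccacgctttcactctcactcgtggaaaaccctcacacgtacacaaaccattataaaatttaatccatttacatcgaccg
HAB1: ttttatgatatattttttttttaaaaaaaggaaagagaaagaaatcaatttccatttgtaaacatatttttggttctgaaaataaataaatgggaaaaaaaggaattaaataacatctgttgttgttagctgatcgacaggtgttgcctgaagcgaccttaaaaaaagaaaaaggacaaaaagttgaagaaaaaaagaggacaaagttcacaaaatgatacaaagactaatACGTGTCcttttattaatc
RD29A: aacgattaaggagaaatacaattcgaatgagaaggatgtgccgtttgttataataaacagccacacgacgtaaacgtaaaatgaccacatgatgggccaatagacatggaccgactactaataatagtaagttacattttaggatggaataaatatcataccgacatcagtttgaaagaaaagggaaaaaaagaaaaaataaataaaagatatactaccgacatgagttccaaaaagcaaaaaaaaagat
RD29B held 3 matches, which began 63, 38 and 10 bases before the start, LEA4-5 held 2 at 67 and 53 bases, LEA14 held 1 at 91 bases and HAB1 1 at 19 bases, while RD29A held none in this window. RD29A rose by 4.04 ± 0.37, and HAB1 by 2.32 ± 0.22. Matches outside these 250 bases were not sought.

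Over all 21145 tested genes with a window, 7.21% held the ABRE letters, against 10.8% of genes at least 4-fold higher and 2.89% of those at least 4-fold lower. The share was 33.3% for dehydrin and LEA genes (7 of 21) and 22.2% for PP2C genes (2 of 9), but 23.1% for photosystem and antenna genes (9 of 39), which mostly fell. The DRE core CCGAC, bound by CBF and DREB factors, was in 42.9% of the dehydrin and LEA windows (9 of 21), and in 12.7% of all windows. The W-box, TTGACC or TTGACT, which WRKY factors bind, was in 38.4% of genes at least 4-fold higher and 44.7% of those at least 32-fold higher, in 30.1% of those at least 4-fold lower, and in 28.3% of all. The G-box, CACGTG, which shares letters and can overlap with the ABRE, was in 38.5% of JAZ windows (5 of 13), against 7.32% of all. CATGTG was in 23.61% of genes at least 4-fold lower, against 11.2% of all windows. Both strands were read for each motif, and a match is a description of letters only.

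Genes for compatible solutes changed in part. Of 8 proline genes 5 rose and 1 fell, with 3 rising without 24 h library 3 or 0 h library 1, and none falling without 24 h library 3, 0 h library 2 or 0 h library 3. P5CS1, which commits glutamate to proline, had 173, 211 and 219 CPM at 24 h, against 82.8, 60.9 and 63.1 CPM at 0 h, with no overlap (log2 difference 1.54 ± 0.21, adjusted p = 3.17e-05). ProDH1, which starts proline breakdown, had 27.5, 11.98 and 11.37 CPM at 24 h, against 26.5, 33.8 and 35.1 CPM at 0 h. Library 1 overlapped the 0 h group (log2 difference -0.90 ± 0.34, adjusted p = 0.036), and the call was lost without 24 h library 2 (adjusted p = 0.137), 24 h library 3 (adjusted p = 0.129), 0 h library 2 (adjusted p = 0.0824) or 0 h library 3 (adjusted p = 0.0909). In the raffinose family 4 of 8 genes rose, all of them galactinol synthases. The call of GolS4 was lost without 24 h library 3 (adjusted p = 0.643), 0 h library 2 (adjusted p = 0.124) or 0 h library 3 (adjusted p = 0.106). GolS2 rose by 3.49 ± 0.38 and GolS1 by 3.47 ± 0.39, whereas DIN10, annotated as a raffinose synthase, fell to 35.3, 33.9 and 27.2 CPM at 24 h, against 151, 156 and 145 CPM at 0 h (log2 difference -2.23 ± 0.17, adjusted p = 1.09e-07). Trehalose genes split, with 9 of 18 higher and 3 lower, and 5 higher without library 1 of either time or without both. The phosphatase gene TPPG rose by 2.01 ± 0.20, and TPPH fell by 1.86. Of 10 polyamine genes 5 rose and 3 fell. ADC2, the arginine decarboxylase induced by stress, had 816, 659.5 and 773 CPM at 24 h, against 112, 122 and 116 CPM at 0 h. Its 24 h libraries lay close together and well above 0 h (log2 difference 2.68 ± 0.15, adjusted p = 1.04e-08), while its relative ADC1 was called slightly lower (-0.40 ± 0.12, lost without 24 h library 3, adjusted p = 0.057).

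Sodium and potassium transport genes moved in both directions. Of 16 sodium-related genes 6 rose and 6 fell. HKT1, which unloads sodium from the xylem, was counted at low levels, with 0.199, 0.444 and 0.264 CPM at 24 h, against 3.09, 3.58 and 3.39 CPM at 0 h. Each 24 h library was far below each 0 h library (log2 difference -3.47 ± 0.35, adjusted p = 1.71e-06). SOS1, the plasma membrane sodium exporter, had 18.7, 25.2 and 21.5 CPM at 24 h, against 14.1, 15.8 and 14.8 CPM at 0 h, a small rise without overlap (log2 difference 0.55 ± 0.13, adjusted p = 0.00215). The vacuolar exchangers NHX2 and NHX1 rose by 1.05 ± 0.18 and 0.68 ± 0.14, whereas NHX4 fell by 1.25, the vacuolar pump AVP1 by 0.67 and CBL10, a calcium sensor of the SOS pathway, by 0.76. For potassium, 6 of 15 rose and 2 fell, HAK5, a high-affinity uptake carrier counted at very low levels, having 0.182, 0.111 and 0.211 CPM at 24 h, against 0, 0 and 0 CPM at 0 h, at least 2.94-fold higher. KUP11 and KUP6 rose by 1.32 ± 0.12 and 1.12 ± 0.19. The fall of KAT1, a guard cell channel, was lost without 24 h library 1 (adjusted p = 0.093), 24 h library 3 (adjusted p = 0.0905), 0 h library 2 (adjusted p = 0.079), 0 h library 3 (adjusted p = 0.053) or replicate 1 at both times (adjusted p = 0.0742).

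Water channel genes tended to be lower. Of 18 tested aquaporins 9 fell and 3 rose, with 6 rising without 24 h library 2, and the median was -0.35. The vacuolar TIP2;1 had 231, 74.6 and 209 CPM at 24 h, against 1216, 1012 and 1123 CPM at 0 h. It was lowest in 24 h library 2, and the groups did not overlap (log2 difference -2.70 ± 0.30, adjusted p = 4.52e-06). TIP1;2 fell by 1.76 and the plasma membrane PIP1;3 by 1.03, while PIP2;6 rose to 503, 741 and 550.0 CPM at 24 h, against 371, 339 and 355 CPM at 0 h (log2 difference 0.75 ± 0.14, adjusted p = 0.000275).

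Jasmonate genes rose at each step. Of 15 synthesis genes 12 rose and none fell (median 1.89). Beside LOX2, the allene oxide cyclase gene AOC3 rose by 3.48 ± 0.51 and OPR3, a reductase of the peroxisomal part, had 209, 212 and 151 CPM at 24 h, against 48.8, 40.6 and 58.5 CPM at 0 h (log2 difference 1.95 ± 0.17, adjusted p = 4.28e-07). Of the 13 JAZ genes, which encode repressors that jasmonate removes and then induces again, 11 rose. JAZ1 had 186, 152 and 90.1005 CPM at 24 h, against 5.89, 5.21 and 10.6 CPM at 0 h. Library 3 was the lowest at 24 h, still above every 0 h library (log2 difference 4.31 ± 0.38, adjusted p = 8.91e-07). JAZ7 rose by 5.03 ± 0.45, and JAZ4 and JAZ13 were not called. All 7 breakdown genes rose, with a median of 2.79, in every set that left 1 library out. CYP94B3, which hydroxylates the active jasmonate conjugate, had 44.8, 34.1 and 29.5 CPM at 24 h, against 0, 0 and 0.158 CPM at 0 h (log2 difference 9.41 ± 0.92, adjusted p = 4.68e-06). JOX3, a jasmonate oxidase, had 89.2, 32.4 and 23.2 CPM at 24 h, against 0.114, 0.185 and 0 CPM at 0 h (log2 difference 8.87 ± 0.94, adjusted p = 6.20e-06). ST2A, which sulfates hydroxyjasmonate, rose by 4.56 ± 0.55. In the 24 h group library 1 was highest and library 3 lowest for JAZ1, CYP94B3, JOX3 and ST2A.

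Ethylene synthesis and receptor genes rose in part, 9 of 15, and 1 fell (2 without 24 h library 1 or without replicate 1 at both times). ACS2, an ACC synthase, had 19.9, 9.05 and 6.01 CPM at 24 h, against 0.0947, 0.0554 and 0.0789 CPM at 0 h. It was close to absent at 0 h and highest in 24 h library 1 (log2 difference 7.22 ± 0.90, adjusted p = 1.81e-05). The receptor genes ERS1 and ERS2 rose by 1.09 ± 0.09 and 1.198 ± 0.21, and the oxidase gene ACO1 fell by 1.04.

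Of 16 salicylate and immunity genes 10 rose and none fell, although ICS1, the main salicylate synthase gene, was not called (log2 difference 0.36 ± 0.36, adjusted p = 0.409). Beside BSMT1, the largest rises were of camalexin genes, whose enzymes make the indolic defence compound of this species. PAD3 had 257, 135 and 45.0 CPM at 24 h, against 0.114, 0.332 and 0.375 CPM at 0 h. The 24 h values spread widely, with library 3 lowest, and none overlapped 0 h (log2 difference 9.05 ± 1.26, adjusted p = 6.34e-05). CYP71A13 rose by 8.59 ± 1.00. CBP60G and SARD1, factors that activate ICS1, rose by 2.203 ± 0.33 and 2.19 ± 0.60, the call of SARD1 being lost without replicate 1 at both times (adjusted p = 0.0648). PR2, a glucanase used as a salicylate marker, rose by 5.79 ± 0.82, and PR5 was not called.

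Of 11 tested regulators of anthocyanin synthesis 5 rose, 2 fell and 4 were not called. PAP1, the MYB activator, had 38.9, 49.8 and 39.0 CPM at 24 h, against 0.682, 0.535 and 1.05 CPM at 0 h. All 24 h libraries were high and alike (log2 difference 5.82 ± 0.31, adjusted p = 1.04e-08). PAP2, its relative, rose by 5.50 ± 0.46, the bHLH partners TT8 and GL3 by 3.95 ± 0.52 and 2.59 ± 0.21, while the MYB repressor MYBL2 fell by 1.09. The counts were 8 higher without 24 h library 2 and 1 lower without 24 h library 1 or without replicate 1 at both times, when TTG1 lost its call (adjusted p = 0.0632 and adjusted p = 0.124).

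Of 14 flavonoid enzyme genes 12 rose (9 to 12 with 1 library left out), with a median of 1.35. DFR, a reductase of the anthocyanin branch, had 36.4, 8.07 and 50.3 CPM at 24 h, against 2.14, 1.03 and 1.97 CPM at 0 h. Library 2 was by far the lowest 24 h library and still above 0 h (log2 difference 4.204 ± 0.57, adjusted p = 4.28e-05). LDOX, the following oxygenase, had 25.2, 7.20 and 29.3 CPM at 24 h, against 1.52, 0.923 and 1.58 CPM at 0 h (log2 difference 3.94 ± 0.43, adjusted p = 5.75e-06). TT19, a carrier of the pigment, rose by 4.101 ± 0.41 and UF3GT, a glycosyltransferase, by 4.25 ± 0.44. Library 2 was also low in many of the listed shoot apex genes, though not in CLV1. Any link to its flavonoid values was not tested beyond leaving that library out.

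Photosynthesis genes fell together. Of 39 nuclear genes for photosystem and antenna proteins 35 fell (32 to 36 with 1 library left out) and none rose, with a median of -0.83. Their sum was 65877, 106837 and 91355 CPM at 24 h, against 151662, 139950.0 and 141607 CPM at 0 h. The 24 h library 1 was the lowest, and the groups did not overlap. LHCB2.3, an antenna protein, had the largest fall (log2 difference -2.05 ± 0.29, adjusted p = 3.97e-05). LHCA1 had 1951, 3052 and 2678 CPM at 24 h, against 6045, 5456 and 5959 CPM at 0 h (log2 difference -1.18 ± 0.16, adjusted p = 2.69e-05). The uncalled members were PSBS, PSBR, LHCB1.3 and LHCB4.3. Of 83 tested genes of the plastid genome none was higher and 34.9% were lower, but poly(A) selection captures such transcripts poorly.

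All 17 Calvin cycle genes fell, 16 or 17 with 1 library left out, with a median of -1.003. RBCS2B, a Rubisco small subunit, had 927, 1176 and 1225 CPM at 24 h, against 3718, 3456 and 3916 CPM at 0 h. Each 24 h library was far below every 0 h library (log2 difference -1.74 ± 0.21, adjusted p = 8.55e-06). SBPASE, a phosphatase of the cycle, fell by 1.28. Carbonic anhydrase gene CA1, on the leaf list, had 515, 690.2 and 686 CPM at 24 h, against 3201, 2745 and 2918 CPM at 0 h (log2 difference -2.23 ± 0.27, adjusted p = 8.75e-06). Chlorophyll synthesis genes fell in 13 of 16 cases. GSA2, which makes the first committed precursor, had 70.3, 70.3 and 65.2 CPM at 24 h, against 329, 261 and 265 CPM at 0 h (log2 difference -2.06 ± 0.13, adjusted p = 3.36e-08). PORB, which reduces protochlorophyllide in light, had 606, 560.1 and 744 CPM at 24 h, against 1591, 1437 and 1476 CPM at 0 h (log2 difference -1.24 ± 0.11, adjusted p = 7.10e-07).

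Breakdown of chlorophyll went the other way, with 6 of 11 genes higher. PPH, which removes phytol, had 129, 128 and 105 CPM at 24 h, against 50.5, 45.0 and 51.9 CPM at 0 h (log2 difference 1.298 ± 0.10, adjusted p = 1.84e-07). NYE1, which removes magnesium, rose by 1.06 ± 0.09, NYE2 by 2.86 ± 0.35 and PAO, which opens the ring, by 0.99 ± 0.14. The number lower, 2, was 4 without 24 h library 2 and 1 in all other sets that left 1 library out except that without 0 h library 1, since NYC1 lost its call (adjusted p = 0.142 without 24 h library 1, adjusted p = 0.0712 without 24 h library 3, adjusted p = 0.0712 without 0 h library 2, adjusted p = 0.111 without 0 h library 3, adjusted p = 0.095 without replicate 1 at both times). Senescence genes rose in 13 of 17 cases, with a median of 4.04. SAG13, a dehydrogenase marker of senescence, had 201, 108 and 192 CPM at 24 h, against 0.625, 0.665 and 0.710 CPM at 0 h, without overlap (log2 difference 7.96 ± 0.47, adjusted p = 3.48e-08). The NAC factors NAP and ORE1, which drive leaf senescence, rose by 4.76 ± 0.51 and 5.29 ± 0.68, and WRKY53 by 3.99 ± 0.34. SAG12, the classical late marker, was not called, and the single fall, SEN1, lost its call without any one library but 0 h library 1 (adjusted p = 0.102, adjusted p = 0.0611 and adjusted p = 0.111 without 24 h libraries 1, 2 and 3, adjusted p = 0.148 and adjusted p = 0.0537 without 0 h libraries 2 and 3, adjusted p = 0.102 without replicate 1 at both times).

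**Figure D3:**
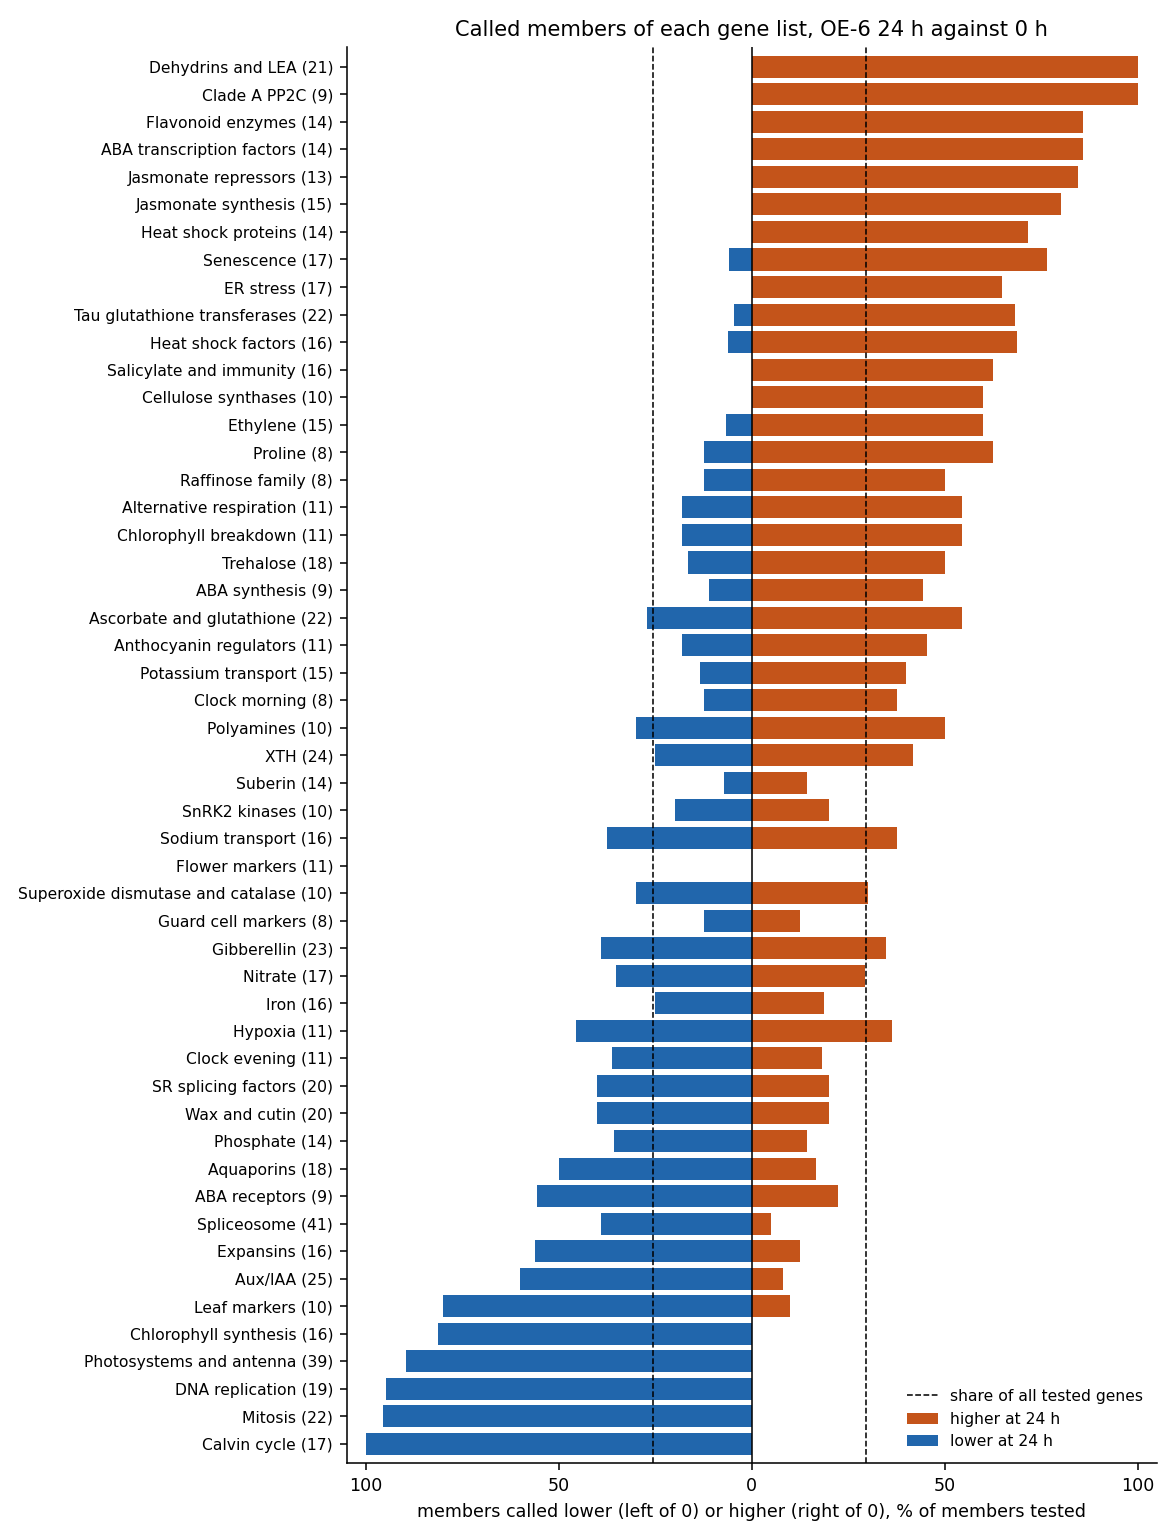
Percent of the tested members of each list that were called higher (to the right) and lower (to the left) in OE-6 at 24 h, for lists with at least 8 tested members. Dashed lines mark the shares over all tested genes, 29.5% higher and 25.7% lower; PP2C, dehydrin and LEA genes reach the right end, and Calvin cycle genes the left end.

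**Figure D4:**
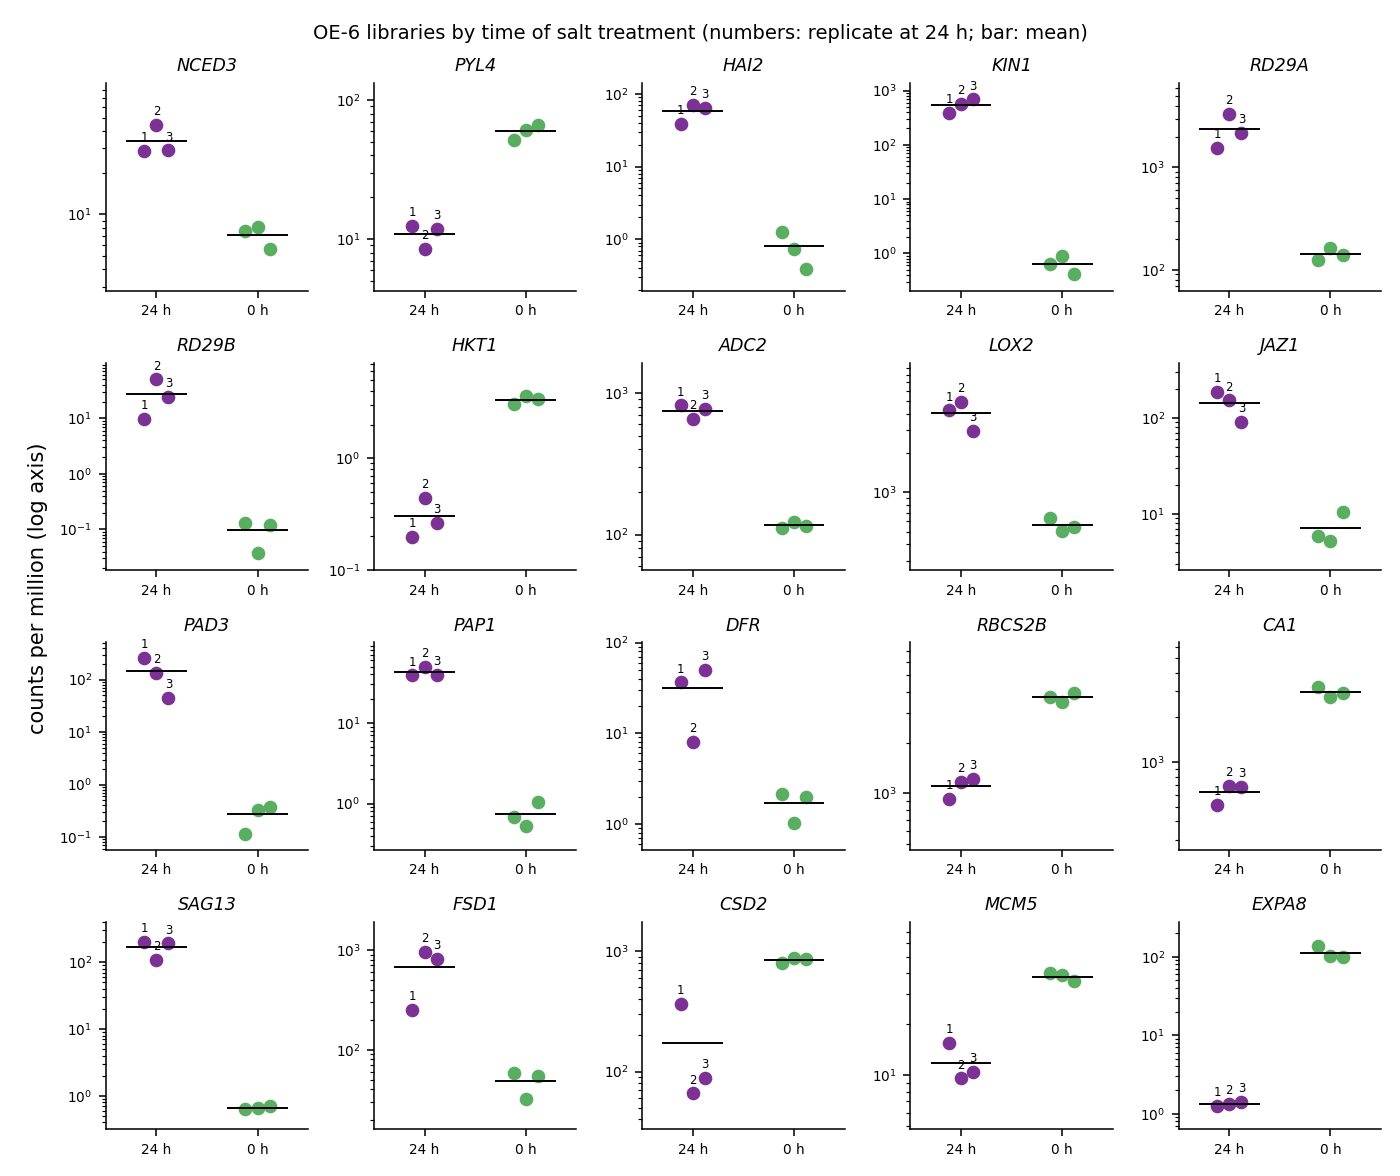
CPM of 20 genes in each OE-6 library on log axes, 24 h left of 0 h; dots are libraries and bars are means. NCED3, PYL4, HAI2, KIN1, RD29A, RD29B, HKT1, ADC2, LOX2, JAZ1, PAD3, PAP1, DFR, RBCS2B, CA1, SAG13, FSD1, CSD2, MCM5 and EXPA8 are shown, and no pair of groups overlaps.

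Single genes for superoxide dismutases changed in opposite directions, while the dismutase and catalase list lay near the shares of all tested genes. FSD1, the iron superoxide dismutase of the chloroplast, had 252, 954 and 810.1 CPM at 24 h, against 58.9, 31.8 and 54.4 CPM at 0 h. Library 1 was well below libraries 2 and 3 and above every 0 h library (log2 difference 3.80 ± 0.80, adjusted p = 0.00142). CSD2, its copper and zinc counterpart, had 364, 66.0 and 88.6 CPM at 24 h, against 800.5, 871 and 866 CPM at 0 h. Here library 1 was the highest of the 24 h group, and all were below 0 h (log2 difference -2.29 ± 0.51, adjusted p = 0.00189). The catalase gene CAT2 rose by 1.26 ± 0.24. Of 10 dismutase and catalase genes 3 rose (30.0%, against 29.5% of all tested genes) and 3 fell (30.0%, against 25.7%). Of 22 ascorbate and glutathione genes 12 rose and 6 fell. DHAR1, which regenerates ascorbate, had 734, 756 and 931 CPM at 24 h, against 176, 119 and 160.4 CPM at 0 h (log2 difference 2.41 ± 0.19, adjusted p = 1.90e-07), GR1, a glutathione reductase, rose by 1.41 ± 0.20, and the thylakoid peroxidase TAPX fell by 1.14. Tau glutathione transferases, a family with tandem copies that detoxifies reactive compounds, rose in 15 of 22 cases. GSTU4 had 137, 69.9 and 36.2 CPM at 24 h, against 0.246, 0.222 and 0.730 CPM at 0 h (log2 difference 7.67 ± 1.01, adjusted p = 3.95e-05), and the single fall, GSTU18, lost its call without replicate 1 at both times (adjusted p = 0.0812).

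Genes of alternative respiration, which lets electrons bypass proton pumping in mitochondria, rose in 6 of 11 cases. Beside AOX1D, NDB2, an external NADH dehydrogenase, had 67.9, 63.3 and 42.6 CPM at 24 h, against 7.44, 6.24 and 6.41 CPM at 0 h (log2 difference 3.11 ± 0.30, adjusted p = 1.30e-06), and AOX1A rose by 1.27 ± 0.24. NDB1 fell by 1.12, and the fall of NDC1 was lost without 24 h library 1 (adjusted p = 0.0647), 24 h library 3 (adjusted p = 0.0534), 0 h library 3 (adjusted p = 0.066) or replicate 1 at both times (adjusted p = 0.0855). Of 14 heat shock protein genes 10 rose. HSP17.4, a small chaperone, had 5.47, 7.85 and 14.6 CPM at 24 h, against 0.0379, 0.148 and 0.0395 CPM at 0 h (log2 difference 6.90 ± 0.65, adjusted p = 1.32e-06), but HSP101, the disaggregase, was not called (log2 difference -0.15 ± 0.39, adjusted p = 0.776). Heat shock factor genes rose in 11 of 16 cases, with HSFB1 at 87.7, 72.4 and 63.2 CPM at 24 h, against 7.33, 7.44 and 7.87 CPM at 0 h (log2 difference 3.30 ± 0.16, adjusted p = 5.33e-09). HSFA7A fell by 2.59, and 2 factors fell without 0 h library 1. In the unfolded protein response of the endoplasmic reticulum 11 of 17 genes rose in every set with 1 library left out. bZIP60, its membrane-bound factor, had 44.5, 46.9 and 39.2 CPM at 24 h, against 16.95, 15.7 and 16.3 CPM at 0 h (log2 difference 1.41 ± 0.13, adjusted p = 5.36e-07), and BIP3, an inducible chaperone, rose by 5.64 ± 1.05.

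Cell division genes fell. Of 19 DNA replication genes 18 fell, also in every set with 1 library left out, with a median of -1.69. CDC6, which loads the replicative helicase, had 2.04, 1.41 and 1.21 CPM at 24 h, against 7.75, 9.18 and 7.95 CPM at 0 h (log2 difference -2.41 ± 0.19, adjusted p = 1.70e-07). MCM5, a subunit of that helicase, had 15.5, 9.55 and 10.5 CPM at 24 h, against 40.0, 38.7 and 35.7 CPM at 0 h (log2 difference -1.69 ± 0.17, adjusted p = 1.19e-06). Neither gene had overlapping groups, and library 1 was the highest at 24 h. Of 22 mitotic genes 21 fell (20 to 21 with 1 library left out). CDC20.1, an activator of the anaphase-promoting complex, had 21.7, 9.37 and 16.4 CPM at 24 h, against 66.3, 65.8 and 57.5 CPM at 0 h. Library 2 was the lowest at 24 h (log2 difference -1.996 ± 0.28, adjusted p = 3.60e-05). Histone genes, many of them near-identical copies, fell in 36 of 46 cases, whereas the linker histone gene HIS1-3, known from drought, had 12.4, 28.8 and 23.5 CPM at 24 h, against 3.98, 4.25 and 3.47 CPM at 0 h (log2 difference 2.47 ± 0.24, adjusted p = 1.36e-06). The number of histone genes higher, 2, was 1 without 0 h library 1.

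Ribosomal protein genes, taken by annotation, fell in 207 of 322 cases and rose in 16, with a median of -0.55. The number was 168 without 24 h library 2, whose median over the list was 0.42 below the mean of the 24 h group. RPL4, a plastid ribosomal protein gene, had 190.3, 173 and 229 CPM at 24 h, against 624, 559 and 566 CPM at 0 h (log2 difference -1.56 ± 0.13, adjusted p = 3.05e-07). Pentatricopeptide repeat genes, whose proteins act on organelle RNA, fell in 151 of 262 cases and rose in 3. Tubulin genes fell in 14 of 21 cases, and 2 rose, or 1 without 24 h library 1, 0 h library 2 or replicate 1 at both times.

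Wall genes split by class. Expansins fell in 9 of 16 cases and rose in 2 (1 without replicate 1 at both times), with a median of -1.03. EXPA1 had 27.4, 14.5 and 20.21 CPM at 24 h, against 232, 156 and 173 CPM at 0 h (log2 difference -3.17 ± 0.24, adjusted p = 1.47e-07). EXPA10 went up instead, with 433, 101 and 191 CPM at 24 h, against 55.7, 35.3 and 40.1 CPM at 0 h, library 1 being far above the others (log2 difference 2.47 ± 0.40, adjusted p = 0.000169). Cellulose synthase genes rose in 6 of 10 cases. CESA7, a subunit of the secondary wall complex, had 34.3, 46.0 and 42.4 CPM at 24 h, against 15.99, 16.7 and 10.5 CPM at 0 h (log2 difference 1.51 ± 0.20, adjusted p = 2.28e-05), and its partners CESA8 and CESA4 rose by 1.19 ± 0.19 and 1.099 ± 0.17. Of 24 tested XTH genes, whose enzymes cut and rejoin xyloglucan, 10 rose and 6 fell. XTH23 rose by 6.02 ± 0.51, while XTH8 fell by 2.55.

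Auxin response genes were mostly lower. Aux/IAA repressor genes fell in 15 of 25 cases and rose in 2, with a median of -0.86. IAA19 had 3.37, 5.63 and 3.67 CPM at 24 h, against 17.2, 18.7 and 14.4 CPM at 0 h (log2 difference -1.99 ± 0.19, adjusted p = 1.10e-06). SAUR genes, which respond early to auxin and occur in tandem copies, fell in 38 of 64 cases and rose in 10 (median -1.44). SAUR29 had 2.06, 1.91 and 1.90 CPM at 24 h, against 11.95, 9.19 and 10.6 CPM at 0 h (log2 difference -2.44 ± 0.14, adjusted p = 1.75e-08). Gibberellin genes moved both ways, 8 higher and 9 lower of 23. GA2OX6, which inactivates gibberellin, had 15.6, 29.9 and 20.11 CPM at 24 h, against 1.08, 1.99 and 1.44 CPM at 0 h (log2 difference 3.86 ± 0.36, adjusted p = 9.54e-07). The receptor gene GID1B rose by 2.24 ± 0.12, and the DELLA repressor gene GAI fell by 1.56. GASA6, among the largest falls, had 4.76, 3.42 and 4.04 CPM at 24 h, against 187, 121 and 137 CPM at 0 h (log2 difference -5.18 ± 0.21, adjusted p = 2.09e-09), whereas GASA1 had 524, 516 and 479 CPM at 24 h, against 36.0, 51.3 and 72.0 CPM at 0 h (log2 difference 3.25 ± 0.25, adjusted p = 1.47e-07).

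Genes of the splicing machinery, listed because of the relation of AtDGCR14L to splicing, showed small differences. Of 20 SR protein genes, whose products choose splice sites, 4 rose and 8 fell (5 fell without replicate 1 at both times), between -0.90 and 0.45. RS41 had 66.6, 59.7 and 67.7 CPM at 24 h, against 92.3, 94.5 and 90.8 CPM at 0 h, without overlap (log2 difference -0.52 ± 0.07, adjusted p = 3.04e-05). SR45a, a stress-responsive member, had 65.1, 64.4 and 59.9 CPM at 24 h, against 49.3, 50.7 and 47.4 CPM at 0 h (log2 difference 0.36 ± 0.08, adjusted p = 0.00148). Of 41 spliceosome and related RNA-binding genes 2 rose and 16 fell, with a median of -0.18. GRP8, a clock-regulated RNA-binding protein, had the largest fall, at 181, 193 and 217 CPM at 24 h, against 455, 412 and 531 CPM at 0 h (log2 difference -1.24 ± 0.15, adjusted p = 8.49e-06). U2B'', a snRNP protein, rose by 0.42 ± 0.10. RNA helicase genes fell in 30 of 69 cases and rose in 5 (3 without replicate 1 at both times). By gene structure, 23.58% of the 3193 genes with over 10 exons were higher and 29.6% lower, against 30.2% and 26.1% of the 3467 genes with 1 exon. These files hold gene counts, so splicing itself was not measured.

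Of 17 nitrate genes 5 rose (29.4%, against 29.5% of all tested genes) and 6 fell, with a median of 0.04. NRT1.5, which loads nitrate into the xylem, had 42.5, 60.4 and 55.6 CPM at 24 h, against 7.75, 7.20 and 6.65 CPM at 0 h. Each 24 h library was far above every 0 h library (log2 difference 2.88 ± 0.13, adjusted p = 3.07e-09). NRT1.8, which unloads it, had 111, 16.6 and 21.0 CPM at 24 h, against 0.530, 0.591 and 0.789 CPM at 0 h, library 1 being far above the others (log2 difference 6.28 ± 0.93, adjusted p = 9.69e-05). NRT1.7, which loads it into the phloem of old leaves, rose by 2.28 ± 0.24, while the assimilation genes GS2 and NIR1 fell by 1.15 and 0.88. Of 16 iron genes 3 were higher (18.75%, against 29.5% of all tested genes) and 4 lower (25.0%, against 25.7%). FER1, a ferritin of plastids, had 693, 1622 and 988 CPM at 24 h, against 94.1, 49.8 and 174 CPM at 0 h. Its values varied widely at each time, with no overlap (log2 difference 3.38 ± 0.68, adjusted p = 0.000961). BHLH38 and BHLH39, factors of the iron deficiency response, were at 0 counts in all 24 h libraries and at most 2.37 and 2.82 CPM at 0 h, so they were at least 25.6-fold and 29.4-fold lower. Among those higher, only FER1 was called without 24 h library 2 or 24 h library 3, as FRO2 (adjusted p = 0.096 and adjusted p = 0.0533) and FER3 (adjusted p = 0.0834 and adjusted p = 0.0694) lost their calls. Phosphate genes gave 2 higher (1 without 0 h library 1, 0 h library 2 or replicate 1 at both times) and 5 lower of 14 (3 without 24 h library 1 or 0 h library 3). PAP17, an acid phosphatase, rose by 1.85 ± 0.21.

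Clock genes, sampled only at these times, gave 3 of 8 morning genes higher (1 without 0 h library 3 or replicate 1 at both times) and 4 of 11 evening genes lower (2 without 24 h library 1, 0 h library 2 or replicate 1 at both times). CHE, a TCP factor of the loop, had 32.5, 30.8 and 38.6 CPM at 24 h, against 94.0, 101 and 103 CPM at 0 h (log2 difference -1.54 ± 0.11, adjusted p = 5.25e-08), and PRR5 fell by 1.02. Wax and cutin genes gave 4 higher and 8 lower of 20. KCS2, an elongase, rose by 2.59 ± 0.27, CER1, which makes alkanes, by 1.44 ± 0.38, and MYB30 fell by 1.05. Of 14 tested suberin genes 2 were higher (1 without 24 h library 3, 0 h library 2 or 0 h library 3). In the same list 1 was lower (3 without 24 h library 3, which held more of the root marker counts). These shares, 14.3% and 7.14%, were below those of all tested genes, 29.5% and 25.7%. Hypoxia genes went both ways, 4 higher and 5 lower of 11. SUS1, a sucrose synthase, had 122, 197 and 130.0 CPM at 24 h, against 25.5, 22.9 and 22.7 CPM at 0 h (log2 difference 2.66 ± 0.27, adjusted p = 1.89e-06). ADH1 was higher by 2.41 ± 0.42, but HRA1, a regulator of the response, fell by 1.799.

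Transcription factor families differed in their shares of higher genes. WRKY genes rose in 31 of 58 cases (53.4%, against 29.5% of all tested genes) and fell in 8. WRKY40, an immune and ABA regulator, had 50.2, 48.2 and 15.96 CPM at 24 h, against 0.360, 0.757 and 0.967 CPM at 0 h, library 3 being the lowest at 24 h (log2 difference 5.78 ± 0.65, adjusted p = 8.77e-06). NAC genes rose in 38 of 79 cases and fell in 3 (5 without 24 h library 1), ERF and AP2 genes in 46 and 17 of 117, MYB genes in 41 and 19 of 113 (12 fell without replicate 1 at both times), and bZIP genes in 20 and 13 of 55. The bHLH genes lay near the shares of all tested genes, 34 higher (30.9%) and 27 lower (24.5%) of 110. Without 24 h library 2 they were 39 higher and 23 lower. Homeobox genes rose in 12 of 62 cases (19.4%), a lower share than over all tested genes. They fell in 15 (24.2%, against 25.7% of all tested genes), with a median of -0.27. PRE1, an atypical bHLH that promotes elongation, had 0.448, 1.15 and 0.967 CPM at 24 h, against 13.1, 7.64 and 7.22 CPM at 0 h (log2 difference -3.45 ± 0.39, adjusted p = 4.24e-06), and HBI1, another growth-promoting bHLH, had 20.05, 33.5 and 27.7 CPM at 24 h, against 137, 128 and 135 CPM at 0 h (log2 difference -2.30 ± 0.15, adjusted p = 3.40e-08). BZIP61 fell to 27.3, 17.3 and 23.1 CPM at 24 h, against 92.6, 114 and 107 CPM at 0 h (log2 difference -2.21 ± 0.14, adjusted p = 3.89e-08).

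Metabolic and transport families differed in their shares of higher genes. UDP-glycosyltransferase genes, which attach sugars to hormones and defence compounds, rose in 55 of 116 cases (47.4%, against 29.5% of all tested genes) and fell in 11. UGT76B1, which modifies salicylate and other immune signals, had 50.8, 12.3 and 3.45 CPM at 24 h, against 0, 0 and 0.237 CPM at 0 h, library 1 being the highest (log2 difference 8.14 ± 1.62, adjusted p = 0.00101). MATE transporters rose in 27 (56.3%) and fell in 7 of 48 cases. Cytochrome P450 genes rose in 48 and fell in 33 of 162, and their share of higher genes (29.6%) was that of all tested genes. ABCG40, an importer of ABA, had 140.2, 81.1 and 11.44 CPM at 24 h, against 2.82, 4.28 and 3.83 CPM at 0 h. Library 3 was far below libraries 1 and 2 and above every 0 h library (log2 difference 4.41 ± 0.74, adjusted p = 0.000257). SWEET13, a sucrose exporter, had 14.2, 27.7 and 19.6 CPM at 24 h, against 1.63, 1.55 and 1.28 CPM at 0 h (log2 difference 3.78 ± 0.38, adjusted p = 2.26e-06). TPS04, a terpene synthase for volatile release, had 84.5, 147 and 71.6 CPM at 24 h, against 0.0758, 0 and 0.868 CPM at 0 h (log2 difference 8.35 ± 0.82, adjusted p = 5.08e-06). ALDH7B4, a stress-responsive aldehyde dehydrogenase, had 422, 459.7 and 422 CPM at 24 h, against 64.9, 57.0 and 57.3 CPM at 0 h (log2 difference 2.86 ± 0.21, adjusted p = 1.10e-07). Several counts rested on single libraries. Class III peroxidases fell in 8 of 46 cases and in 15 without 24 h library 3, and lipid transfer proteins in 10 of 66 and in 17 without that library. The share of lipid transfer genes that rose (25.8%) was below that of all tested genes. NLR immune receptors fell in 12 of 113 cases, in 6 without 0 h library 2 and in 17 without 24 h library 2. Aldehyde dehydrogenases fell in 4 of 16 cases and in 2 without replicate 1 at both times. Proteasome subunits fell in 7 of 40 cases, in 3 without 24 h library 2 or without replicate 1 at both times, in 2 without 24 h library 3 and in 1 without 0 h library 1. Autophagy genes rose in 8 of 15 cases, in 4 without 24 h library 2 or 0 h library 1 and in 5 without 0 h library 3, and terpene synthases in 5 of 19 (26.3%), in 3 without 0 h library 2 or 0 h library 3. Guard cell markers gave 1 higher of 8 (2 without 24 h library 2) and 1 lower (none without 24 h library 3, 0 h library 2 or 0 h library 3), and seed storage genes 2 higher of 5 tested (1 without 24 h library 3 or any 0 h library).

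The response of OE-6 was then set against those of the other lines by testing the difference of responses in the same fit. No gene differed from Col-0 in its response by edgeR's quasi-likelihood test, with 914 genes (4.29%) at an unadjusted p under 0.05 and a smallest adjusted p of 0.212, whereas DESeq2 called 5 more positive and 3 more negative in OE-6. Without 24 h library 3 of OE-6, 25 genes were called more negative. Called genes made up 55.3% of those tested in OE-6 and 46.8% in Col-0, but these shares also depend on the spread and number of libraries. The median standard error of the difference of responses was 0.22 on the log2 scale. The fitted difference exceeded 1 in size for 1281 genes (6.02%), none of them called, so differences of that size were not detectable for those genes, and the lines are not shown to act alike.

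Against atdgcr14l-1, 2 of the 21282 genes (0.0094%) differed in response, both more negative in OE-6, and 2080 genes (9.77%) had an unadjusted p under 0.05. In IGMT5 (AT1G76790), an O-methyltransferase of indole glucosinolate synthesis, OE-6 had 115, 98.2 and 108 CPM at 24 h, against 30.0, 25.4 and 40.0 CPM at 0 h. All 24 h libraries were higher than all 0 h libraries (log2 difference 1.75 ± 0.19, adjusted p = 2.71e-06). The mutant had 255, 191 and 213 CPM at 24 h, against 16.2, 18.5 and 14.02 CPM at 0 h. The mutant thus began lower and ended higher, with a response of 3.76, against 2.02 in Col-0. The response of OE-6 minus that of the mutant was -2.01 ± 0.26 (adjusted p = 0.0175), between -2.14 and -1.81 with 1 library left out. It was no longer called without mutant 0 h library 1 (adjusted p = 0.0992), mutant 0 h library 3 (0.0985), mutant 24 h library 1 (0.0709) or OE-6 0 h library 1 (0.0622).

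AT14A (AT3G28290), a membrane protein gene next to its near-identical copy AT3G28300, had 43.8, 33.8 and 51.3 CPM at 24 h, against 77.2, 46.5 and 61.1 CPM at 0 h in OE-6. The OE-6 groups overlapped, and the fall (log2 difference -0.52 ± 0.16, adjusted p = 0.0146) was lost without 24 h library 2 (adjusted p = 0.0643), 0 h library 1 (adjusted p = 0.089) or replicate 1 at both times (adjusted p = 0.121). The mutant had 62.1, 63.6 and 71.2 CPM at 24 h, against 24.2, 27.4 and 26.2 CPM at 0 h, with a response of 1.34, and Col-0 one of -0.07. The response of OE-6 minus that of the mutant was -1.86 ± 0.23 (adjusted p = 0.0175), and the call was lost without mutant 0 h library 1, mutant 0 h library 3 or mutant 24 h library 1. Reads shared with the copy make its level uncertain: in OE-6 AT3G28300 had 38.4, 28.6 and 0 CPM at 24 h, against 68.4, 41.9 and 54.3 CPM at 0 h.

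The number of genes called against the mutant depended on the libraries and the tool. It was 21 more positive and 42 more negative without OE-6 24 h library 1, 10 and 50 without OE-6 24 h library 3, and 20 and 48 without mutant 24 h library 2, and DESeq2 called 72 and 161. Medians of whole lists were 3.45 in OE-6, 5.04 in the mutant and 3.95 in Col-0 for dehydrins and LEA proteins, 2.32, 2.53 and 2.18 for PP2C genes, and -0.83, -0.93 and -0.84 for photosystem and antenna genes. For jasmonate breakdown they were 2.79, 4.47 and 2.94, for flavonoid enzymes 1.35, 2.26 and 1.58, and for ribosomal proteins -0.55, -0.22 and -0.15. No member of these lists was called different in response from either line.

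**Figure D5:**
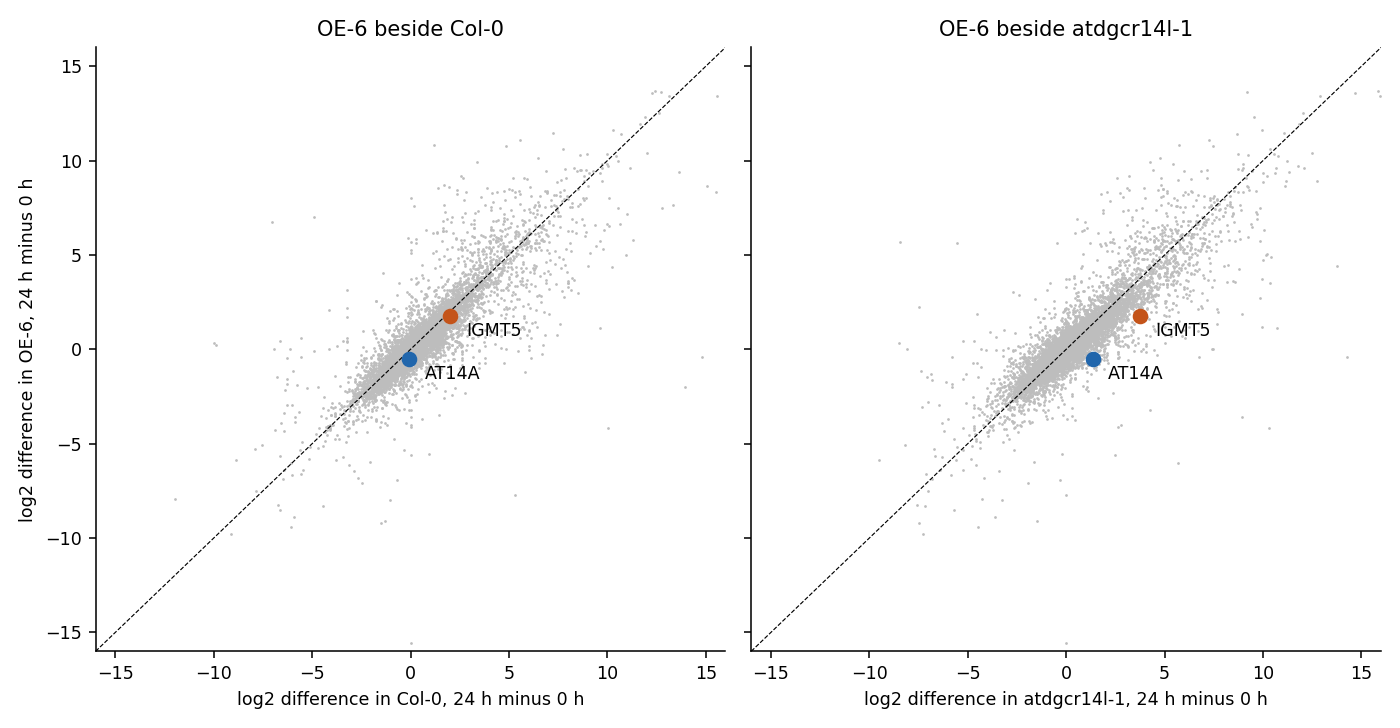
Log2 difference of 24 h minus 0 h in OE-6 (vertical) against that in atdgcr14l-1 or Col-0 (horizontal) for every tested gene, with the line of equal response. IGMT5 and AT14A, the genes called against the mutant, lie below the line in the mutant panel, at 1.75 against 3.76 and -0.52 against 1.34.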

How the data were processed

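Gene counts of 17 libraries were used, 6 of them from OE-6. The deposited values are estimated counts per gene, whole in each file, which the authors made with Bowtie2 2.4.5 and StringTie 2.1.7, per the submitters' processing notes, which also name DESeq2 2.11.40.7. Per the labels' protocols, the libraries were strand-marked, made from poly(A) RNA and sequenced on DNBSEQ; for the genome build and for strand in counting the sources used here give no entry. Values of 2 were commoner (8767) than values of 1 (2703) or 3 (4203), and 75 tested genes were at 0 in 1 library only while the other libraries had a median of at least 100 counts, so an exact 0 may not mean absence.

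Genes were joined by locus and named from RefSeq TAIR10.1. The counts were tested with edgeR 4.0.16 in R 4.3.3 (default expression filter, TMM scaling, robust quasi-likelihood fit over all 6 groups without a block), adjusted by Benjamini-Hochberg over 21282 genes, and called under 0.05. Alternatives were other size factors, filters, DESeq2 1.42.0, a fit to the compared groups only, a replicate block and leaving out libraries. On data simulated for OE-6 at 24 h against 0 h (20530 genes, 200 changed) the test recovered 76% of 2-fold and 98% of 8-fold changes, with 2.25% false calls. The simulation took OE-6 0 h means and 1 spread per gene for all groups. In the real data 55.3% of genes were called and the 24 h libraries varied more, so these rates need not hold there. Genes named by size had a mean of at least 5 CPM: the 10 largest rises, falls, gains and losses. The members and lists were chosen with earlier results of these data known.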

Additional observations from a re-analysis of the deposited data

Results flagged for a closer look

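The salt response of IGMT5, an O-methyltransferase gene of indole glucosinolate synthesis, differed between OE-6 and atdgcr14l-1 in the edgeR fit, by -2.01 ± 0.26 on the log2 scale (adjusted p = 0.0175). That of AT14A, a membrane protein gene with a near-identical neighbouring copy, differed by -1.86 ± 0.23 (adjusted p = 0.0175). Both calls were lost without atdgcr14l-1 0 h replicate 1 (adjusted p = 0.0992 for each), 0 h replicate 3 (adjusted p = 0.0985 for each) or 24 h replicate 1 (adjusted p = 0.0709 for each), and that of IGMT5 also without OE-6 0 h replicate 1 (adjusted p = 0.0622). In a fit of only the groups compared, 0 genes were called more negative in OE-6. Both were marked because the difference of responses was itself tested, and no cause was tested.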

How the results depend on the processing

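The counts of genes called higher and lower in OE-6 stayed within 1.5 times under each alternative run, with 5556 to 6008 higher and 4853 to 5386 lower when 1 OE-6 library was left out. Calls shared with the alternative numbered 11618 of its 11774 with RLE size factors, 11702 of 12152 with DESeq2, 9444 of 9545 with only the groups compared and 9756 of 10214 without replicate 1 at both times, the last chosen after seeing the data. Genes whose response was more positive in OE-6 than in Col-0 numbered 5 with DESeq2, 1 with the replicate block and 0 to 1 with 1 library left out. More negative ones numbered 3, 1 and 0 to 25. Against atdgcr14l-1, more positive responses numbered 72 with DESeq2 and 0 to 21 with 1 library left out. More negative ones numbered 161 with DESeq2, 0 with only the groups compared and 0 to 50 with 1 library left out. The causes were not tested. EGL3, not called in all libraries, lay between -0.52 and 0.49 with 1 library left out, and was called higher without OE-6 24 h replicate 2 (adjusted p = 0.0248). SHN1, also not called, lay between -2.77 and 1.00, and was called lower without OE-6 24 h replicate 1 (adjusted p = 0.0328). With the replicate block, 5723 genes were higher and 5173 lower. Deviations of log2 levels from the group mean were correlated, over genes, between the 24 h and 0 h libraries of OE-6. Same-numbered libraries gave 0.32, 0.15 and 0.077. On this measure each 24 h library correlated best with its own number, a hint of pairing from the data that the labels do not give. As the smallest correlation did not pass 0.1, the block was kept as an alternative only.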

Other observations

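In OE-6, 73 genes were at least 4-fold lower in 24 h library 2 than in every other OE-6 library while the other 24 h libraries lay within 2-fold of the 0 h range, against 2 such genes for library 1 and 2 for library 3. They include epidermal genes: PDF1, a protodermal factor, had 230.4, 2.31 and 193 CPM at 24 h, against 309, 264 and 245 CPM at 0 h, and SPCH, which starts the stomatal lineage, had 4.48, 0 and 5.34 CPM at 24 h, against 8.32, 9.88 and 8.09 CPM at 0 h. A further 11 genes lay within 2-fold of the 0 h range in 24 h library 3 and at least 4-fold lower in the other 24 h libraries, against 0 for library 1 and 1 for library 2, and NAS1, a nicotianamine synthase, had 2.37, 2.52 and 12.5 CPM at 24 h, against 13.5, 10.2 and 11.36 CPM at 0 h. MS2, a gene of pollen wall formation, had 1518 counts in OE-6 24 h library 1 and 0 in 16 of the 17 libraries. AT1G23300, annotated as a MATE transporter, had 0, 0 and 0 CPM at 24 h, against 174, 154 and 0 CPM at 0 h and was at 0 in 15 of the 17 libraries. Of the 75 tested genes at 0 in a single library, 54 had that 0 in an OE-6 library.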
